A study of Mus musculus with 10 samples.

Results

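The collagens of the mouse digit tip blastema are described here apart from the cartilage genes Col2a1, Col9a1 and Col10a1. Members were all genes of the deposited protein-coding table whose symbol has the form of a collagen chain gene, which gave 44 genes, and 41 after those 3 were left out, of 21729 protein-coding genes and 55416 genes listed per library. They fall into 10 fibrillar chains, 9 chains of or beside basement membranes, 6 microfibrillar type VI chains, 8 chains of the FACIT group (fibril-associated collagens with interrupted triple helices), 4 transmembrane collagens and 4 others. Of the 41, 39 passed the filter on low counts and were tested, and Col6a4 and Col6a6 were not.

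The blastema is the mass of proliferating cells that forms at the end of an amputated digit. Samples were dissected blastemas from central hindlimb digits of wild type mice and of ΔLARM1/2 mice, in which the enhancers LARM1 and LARM2 of Lmx1b are deleted. All mice were of mixed CD1 and C57Bl/6 background. Mice were 33 days old when tissue was taken 12 days after amputation (12 dpa) and 35 days old at 14 dpa, as 2 libraries of wild type and 3 of mutant tissue for each day, and each library pooled 6 digits. The labels tie the deletion to no cell type, and the tissue is a mixture of cell types, so fewer cells of a type and less RNA per cell cannot be told apart in what follows.

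Collagens are the main structural proteins of connective tissue. Each molecule is a triple helix of 3 chains, and in some collagen types the helix combines chains of different genes in fixed proportion. Fibrillar collagens form the tension-bearing fibrils of dermis, bone and tendon, network-forming type IV collagen is the scaffold of basement membranes, and transmembrane collagens anchor cells to the matrix. In regenerating digit tips, a collagenous matrix is laid down by blastema fibroblasts and, later, by bone-forming osteoblasts.

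Libraries held 69998104 to 101632364 expected counts. Lmx1b, the gene whose enhancers were deleted, was at 1.69 to 2.94 CPM in the 4 wild type libraries and at 0.0278 to 0.336 CPM in the 6 mutant libraries (log2 -3.98, SE 0.49, adjusted p = 0.000406). CPM here is the count scaled to the TMM-adjusted library size. The genotype tag of mutant 14 dpa replicate 1 reads wild type, but its title, its description and its Lmx1b level of 0.234 CPM are those of a mutant. It had the lowest collagen share of counts, 0.677%, and wild type 14 dpa replicate 1 had the lowest protein-coding share of counts, 81.5% against 87.7% to 93.6% in the other 9. Collagens took 2.58% to 3.48% of counts in wild type and 0.677% to 1.76% in mutants. Between replicates the chi-square per degree of freedom was 125.1 to 243.5, far above sampling noise, so each library counted as 1 replicate.

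Levels of different genes were compared per length, in TPM. Col1a1 had the highest collagen TPM in all 4 wild type libraries, and Col1a2, Col3a1 and Col17a1 took the next 3 places. Col17a1, the hemidesmosomal collagen of basal keratinocytes, had rank 3 or 4 in wild type and rank 1 or 2 in all 6 mutants. The ratio of Col17a1 to Col1a1 TPM was 0.414, 0.330, 0.274 and 0.426 in wild type and 0.727, 1.05, 0.740, 3.08, 0.720 and 1.55 in mutants, so the groups did not overlap. This ratio was chosen after its values were seen and is given without a test. The 5 highest members held 74.9% to 79.5% of the summed collagen TPM of a library. Mean TPM over all 10 libraries was at least 100 for 4 members, at least 1 for 29 and under 0.1 for 6.

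The make-up by class differed between genotypes, again as a description. Fibrillar chains held 65.9% to 71.5% of collagen TPM in wild type and 38.7% to 63.6% in mutants. Transmembrane collagens, of which nearly all was Col17a1, held 8.66% to 12.4% in wild type and 18.1% to 41.3% in mutants. Shares overlapped for basement membrane chains, at 7.68% to 9.06% in wild type and 6.18% to 10.9% in mutants, for FACIT chains, at 3.79% to 4.42% and 3.51% to 5.05%, and for microfibrillar chains, at 7.44% to 8.14% and 5.05% to 7.80%. The 4 collagens outside these classes held 0.954% to 1.15% in wild type and 0.307% to 0.783% in mutants, without overlap. Mutant 14 dpa replicate 1 gave the fibrillar minimum and the transmembrane maximum, and without it the mutant ranges were 50.5% to 63.6% and 18.1% to 27.5%.

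**Figure D1:**
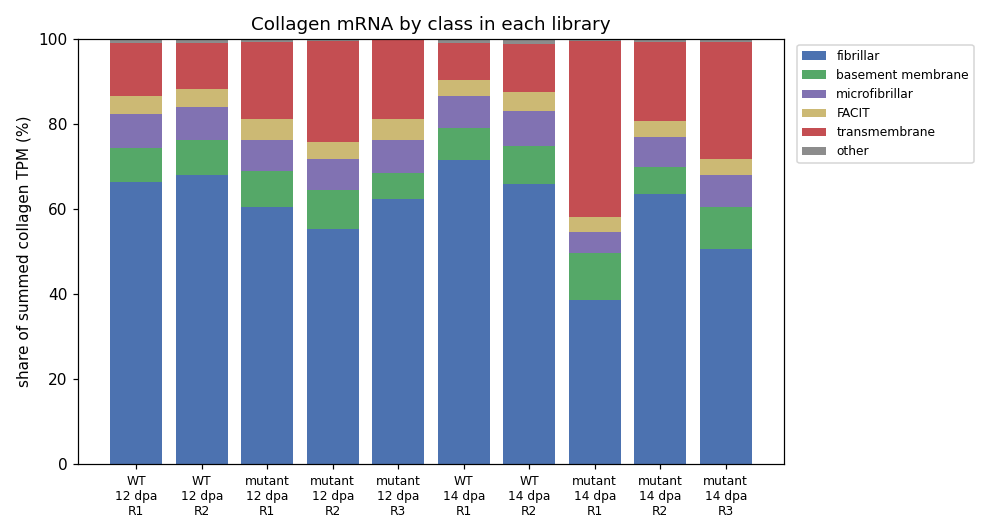
Share of summed collagen TPM (%) by class in each of the 10 libraries, as stacked bars. Fibrillar chains hold at least 65.9% in each wild type library and at most 63.6% in each mutant library.

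Averaged over both days, 26 of the 39 tested collagens fell in mutants, 1 rose and 12 did not pass (edgeR quasi-likelihood test, Benjamini-Hochberg adjusted p under 0.05). The median log2 difference was -1.20, against 0.02 over all 20216 genes tested. Of all genes, 22.2% were called lower and 21.5% higher (43.7% in either direction), so the share of collagens called lower, 66.7%, was above the background and the share called higher was below it. In 27 members every mutant library was below every wild type library of its day (69.2% of those tested, against 19.3% of all genes), and in 1 every mutant was above (18.0% of all genes). When mutant 14 dpa replicate 1 was moved to wild type, as its tag reads, no collagen and no other gene passed. Without that library 25 collagens fell, and without wild type 14 dpa replicate 1, 22 fell; in neither did any rise.

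**Figure D2:**
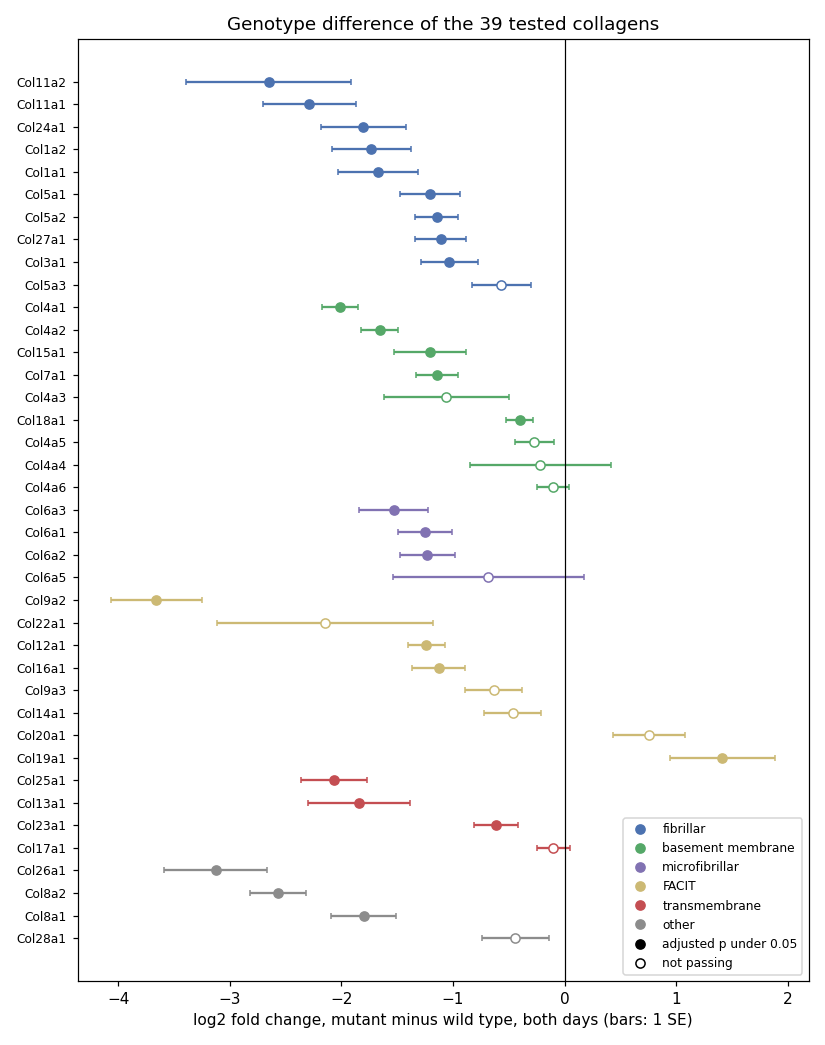
Log2 fold change of mutant against wild type averaged over both days for the 39 tested collagens, with bars of 1 SE, coloured by class; filled points passed the test. All but Col19a1 and Col20a1 lie left of 0, and the type IV chains Col4a4, Col4a5 and Col4a6 and the transmembrane Col17a1 lie close to it.

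Fibrillar chains fell almost throughout, 9 of 10 with only Col5a3 not passing, where 22.2% of all genes fell. Their median log2 difference was -1.44. Col1a1, which encodes the main chain of type I collagen of bone and dermis, was at 10403 and 12251 CPM in wild type and 3011, 3481 and 4122 CPM in mutants at 12 dpa, and 11070.1 and 6575 CPM against 1141, 4956 and 2256 CPM at 14 dpa. Every mutant library was below every wild type library of its day, and the lowest, replicate 1 at 14 dpa, was also well below replicate 2 of its own group. The difference was -1.67 (SE 0.36, adjusted p = 0.00557), a 3.19-fold lower level. Its partner chain Col1a2 was at 5486 and 5948 CPM in wild type and 1510.5, 1564 and 1827 CPM in mutants at 12 dpa, and 6259 and 3887 CPM against 604, 2845 and 1389.6 CPM at 14 dpa. The groups were apart on both days, and the difference was -1.73 (SE 0.36, adjusted p = 0.00512). Col3a1, the chain of type III collagen of young and healing tissue, was at 3823 and 4058 CPM in wild type and 1644, 1885 and 2458 CPM in mutants at 12 dpa, and 4098 and 3312 CPM against 912, 2583 and 1749 CPM at 14 dpa. Its difference was -1.03 (SE 0.25, adjusted p = 0.00967), with the mutants again below the wild type on each day.

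Col1a2 and Col3a1 were the most abundant fibrillar members with a promoter entry, and Col17a1 was the abundant collagen that did not fall with them. The 250 bases before the RefSeq start (build GRCm38.p6) are shown for the 3 genes, 5′ to 3′ on the gene's strand, with capitals marking 3 motifs on either strand, the TATA box as TATAAA, the CCAAT box as CCAAT and the GC box as GGGCGG. The Col1a2 window is chr6:4505368-4505617, plus strand, that of Col3a1 is chr1:45311288-45311537, plus strand, and that of Col17a1 is chr19:47692043-47692292, minus strand.
Col1a2: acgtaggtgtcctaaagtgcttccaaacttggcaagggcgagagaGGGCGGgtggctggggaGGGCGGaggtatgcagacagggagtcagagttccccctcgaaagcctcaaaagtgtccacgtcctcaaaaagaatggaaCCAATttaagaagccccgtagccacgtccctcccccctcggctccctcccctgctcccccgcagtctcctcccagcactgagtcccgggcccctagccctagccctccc
Col3a1: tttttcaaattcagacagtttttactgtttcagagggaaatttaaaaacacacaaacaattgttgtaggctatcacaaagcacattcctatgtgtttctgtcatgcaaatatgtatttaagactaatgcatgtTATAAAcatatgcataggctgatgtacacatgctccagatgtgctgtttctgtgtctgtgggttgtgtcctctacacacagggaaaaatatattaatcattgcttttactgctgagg
Col17a1: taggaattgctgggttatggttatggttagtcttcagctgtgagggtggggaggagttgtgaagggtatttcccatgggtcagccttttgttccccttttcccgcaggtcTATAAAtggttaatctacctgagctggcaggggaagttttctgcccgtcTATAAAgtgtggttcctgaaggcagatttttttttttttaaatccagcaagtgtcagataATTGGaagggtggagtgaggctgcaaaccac
The Col1a2 window held GGGCGG 2 times and CCAAT 1 time, that of Col3a1 held TATAAA 1 time, and that of Col17a1 held TATAAA 2 times and CCAAT 1 time. Of 32851 RefSeq promoter windows of the same length, TATAAA was in 12.4%, CCAAT in 33.8% and GGGCGG in 32.7%. Entries were found for 33 of the 41 members, 35 windows in all, of which 4 held TATAAA, 12 held CCAAT and 22 held GGGCGG. A match is a run of letters, not a shown binding site.

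Among the minor fibrillar chains, Col5a1 and Col5a2 of type V collagen, which sets fibril diameter, changed by -1.21 (SE 0.27, adjusted p = 0.0065) and -1.15 (SE 0.19, adjusted p = 0.00175). The type XI chains, which do the same in cartilage fibrils, fell too, Col11a1 by 2.29 and Col11a2 by 2.65 on the log2 scale (adjusted p = 0.00347 and 0.0233). Col24a1 and Col27a1, fibrillar chains of bone and cartilage, changed by -1.80 and -1.11 (adjusted p = 0.00579 and 0.00465). Col11a2 lost its call in 9 other settings, 5 of which left out a single library. Those without wild type 14 dpa replicate 1 were among the 9. Of the 29 members with a mean TPM of at least 1 it varied most within mutants at 14 dpa, where the highest library was 20.01 times the lowest.

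Col5a3, another type V chain, was at 83.4 and 90.8 CPM in wild type and 80, 72.3 and 135 CPM in mutants at 12 dpa, and 81.8 and 69.4 CPM against 17.3, 45 and 31.8 CPM at 14 dpa. Mutants lay around the wild type at 12 dpa and below it at 14 dpa. At 12 dpa it differed by 0.13 (SE 0.38, adjusted p = 0.836). At 14 dpa the value was -1.27 (SE 0.37, adjusted p = 0.0317), and the difference between the days, -1.40, did not pass (adjusted p = 0.548).

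Markers of the fibroblasts and osteoblasts that make these chains moved too. Of all genes 22.2% were called lower and 21.5% higher, and the marker lists were chosen with earlier results of these data known. Of 7 fibroblast markers 5 fell and 2 did not pass (median log2 -1.19), and their summed level was 665 to 749 CPM in wild type and 269.7 to 320.4 CPM in mutants at 12 dpa, and 771 to 781 CPM against 153 to 499 CPM at 14 dpa. Of 8 osteoblast markers 6 fell and 2 did not pass (median -2.52), and their sum was 387 to 402 CPM in wild type and 55.9 to 118 CPM in mutants at 12 dpa, and 203 to 420.04 CPM against 14.4 to 121 CPM at 14 dpa. No marker of these 2 lists was at 0. Of 4 tendon markers 3 fell and Thbs4 did not pass (1.22, adjusted p = 0.197), and their sum was 16.2 to 17 CPM in wild type and 8.85 to 16.8 CPM in mutants at 12 dpa, and 19.8 to 19.9 CPM against 3.61 to 21.1 CPM at 14 dpa. The part of these cell types in the collagen differences was not tested.

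Basement membrane chains split. Col4a1 and Col4a2, which form the common type IV network of vessels and epithelia, fell by 2.01 and 1.66 on the log2 scale. Col4a5 and Col4a6 did not pass. Of the 9 chains 5 fell and 4 did not pass, where 22.2% of all genes fell. Col4a1 was at 667 and 841 CPM in wild type and 143, 237 and 176 CPM in mutants at 12 dpa, and 723 and 601 CPM against 138, 190.2 and 169 CPM at 14 dpa. The groups were far apart on both days, and the difference of -2.01 (SE 0.16, adjusted p = 4.87e-05) had the lowest adjusted p of all collagens. Col4a2 changed by -1.66 (SE 0.16, adjusted p = 0.000148), and its mutants too lay below the wild type on both days.

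Col18a1, whose C-terminal fragment is endostatin, was at 418 and 465 CPM in wild type and 301, 335 and 309 CPM in mutants at 12 dpa, and 355 and 359.9 CPM against 217, 311 and 333 CPM at 14 dpa. Mutants lay below the wild type on both days by a small margin, and the difference was -0.40 (SE 0.12, adjusted p = 0.0241). It lost its call without wild type 12 dpa replicate 2 and without either wild type 14 dpa replicate. Col7a1, the anchoring fibril collagen under the epidermis, was at 770.1 and 720.1 CPM in wild type and 248, 399 and 200.2 CPM in mutants at 12 dpa, and 671 and 489 CPM against 278, 306 and 354 CPM at 14 dpa. It fell with no overlap, -1.15 (SE 0.19, adjusted p = 0.00147). Col15a1, a relative of Col18a1 beside vessels and muscle, changed by -1.20 (SE 0.32, adjusted p = 0.0171), and it lost its call without wild type 12 dpa replicate 2 or 14 dpa replicate 1.

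Col4a5 and Col4a6 are the chains of the second type IV network, which epithelia and smooth muscle use. Col4a5 was at 109 and 117 CPM in wild type and 80, 100.02 and 50.2 CPM in mutants at 12 dpa, and 109 and 92.3 CPM against 89.7, 98 and 119 CPM at 14 dpa. At 12 dpa the mutants were below the wild type and at 14 dpa the groups overlapped, and the difference over both days was -0.27 (SE 0.17, adjusted p = 0.229). Col4a6 changed by -0.10 (SE 0.14, adjusted p = 0.585), which was 0.14 and 0.16 on the scales of log2(TPM + 1) and log2(TPM + 0.1), no higher than the medians of all genes there, 0.14 and 0.26. By day, Col4a5 changed by -0.56 at 12 dpa and 0.018 at 14 dpa, and Col4a6 by -0.36 and 0.15, none of them passing. Their differences between the days, 0.58 and 0.50, did not pass either (adjusted p = 0.659 and 0.646). Col4a3 and Col4a4, chains of the kidney glomerulus, were near 0, at no more than 0.836 CPM in any library.

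The type IV genes lie in head-to-head pairs. In the RefSeq table the starts of Col4a1 and Col4a2 were 21 bases apart on chromosome 8, placed so that the 5′ ends of both genes overlapped. The starts of Col4a6 and Col4a5 were 1343 bases apart on chromosome X, without overlap. The windows of the second pair are shown because these chains stood apart from Col4a1 and Col4a2, and their build, orientation and capitals are as above. The Col4a5 window is chrX:141475169-141475418, plus strand, and that of Col4a6 is chrX:141474077-141474326, minus strand.
Col4a5: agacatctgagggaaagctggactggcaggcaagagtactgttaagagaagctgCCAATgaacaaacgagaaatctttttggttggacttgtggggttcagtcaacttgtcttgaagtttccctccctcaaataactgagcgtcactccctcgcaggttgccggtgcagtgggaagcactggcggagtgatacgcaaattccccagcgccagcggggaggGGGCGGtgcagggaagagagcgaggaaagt
Col4a6: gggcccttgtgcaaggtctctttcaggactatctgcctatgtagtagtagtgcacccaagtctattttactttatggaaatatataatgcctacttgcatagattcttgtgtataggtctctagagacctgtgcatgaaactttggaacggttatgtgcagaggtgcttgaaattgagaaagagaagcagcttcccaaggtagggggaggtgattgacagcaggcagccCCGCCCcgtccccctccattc
Each held GGGCGG 1 time, that of Col4a6 on the other strand, and that of Col4a5 also held CCAAT 1 time.

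Endothelial markers fell as a whole, 9 of 9 with a median log2 difference of -1.81 and none at 0, against 22.2% of all genes. Their summed level was 219.8 to 273 CPM in wild type and 61.5 to 92.8 CPM in mutants at 12 dpa, and 261 to 278 CPM against 46.3 to 86.4 CPM at 14 dpa. Of 9 pericyte and smooth muscle markers 8 fell and 1 did not pass. Their sum was 893 to 918 CPM in wild type and 506 to 631 CPM in mutants at 12 dpa, and 726 to 956 CPM against 414 to 555 CPM at 14 dpa. Much of that sum was Cspg4 and Notch3, at means of 341 and 133 CPM in wild type and 261 and 143 CPM in mutants. These changed by -0.38 and 0.10, and the other markers on the list by -2.20 (Tagln) to -1.06 (Kcnj8). The part of endothelial, pericyte and smooth muscle cells in the fall of Col4a1 and Col4a2 was not tested.

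Type VI collagen forms beaded microfibrils around cells. Its 3 main chains fell together, where 22.2% of all genes fell, and no other type VI chain passed. Col6a3 was at 980.1 and 1037 CPM in wild type and 298, 393 and 464 CPM in mutants at 12 dpa, and 914 and 724 CPM against 104, 384 and 283 CPM at 14 dpa. Col6a2 was at 577 and 653 CPM in wild type and 179.7, 260.5 and 289 CPM in mutants at 12 dpa, and 490.04 and 396 CPM against 114, 297 and 203 CPM at 14 dpa. Col6a1 was at 611 and 659.8 CPM in wild type and 182, 256 and 263 CPM in mutants at 12 dpa, and 514 and 411 CPM against 119, 321 and 228 CPM at 14 dpa. All 3 had every mutant library below every wild type library of its day, and they differed by -1.53 (SE 0.31, adjusted p = 0.00462), -1.23 (SE 0.24, adjusted p = 0.00409) and -1.25 (SE 0.24, adjusted p = 0.00364). Col6a5 was at no more than 0.277 CPM, and its log2 difference of -0.68 (adjusted p = 0.544) turned to 1.45 without wild type 12 dpa replicate 1. The 2 untested chains, Col6a4 and Col6a6, reached no more than 0.122 and 0.145 CPM.

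FACIT collagens, which decorate fibrils, were mixed. Of 8, 3 fell (Col12a1, Col16a1 and Col9a2), 1 rose (Col19a1) and 4 did not pass. With 22.2% of all genes called lower and 21.5% higher, these counts are not read as a result about the class. Col12a1, a tension-regulated chain of dermis, tendon and periosteum, was at 1405 and 1617 CPM in wild type and 644, 616 and 854 CPM in mutants at 12 dpa, and 1189 and 976 CPM against 309, 539.5 and 401 CPM at 14 dpa. Col16a1, a minor chain of dermis and cartilage, was at 189 and 209 CPM in wild type and 72.6, 91.9 and 102 CPM in mutants at 12 dpa, and 185 and 154 CPM against 43.9, 119 and 76.1 CPM at 14 dpa. Neither gene's groups overlapped on either day, and they changed by -1.24 (SE 0.17, adjusted p = 0.000613) and -1.13 (SE 0.24, adjusted p = 0.00564).

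Type IX collagen coats the fibrils of cartilage. Col9a2 was at 3.67 and 5.14 CPM in wild type and 0.225, 0.258 and 0.0448 CPM in mutants at 12 dpa, and 2.84 and 2.79 CPM against 0.339, 0.706 and 0.264 CPM at 14 dpa, and its difference of -3.66 (SE 0.41, adjusted p = 0.00027) was the lowest of all tested collagens. Col9a3 was at 3.6 and 3.76 CPM in wild type and 2.78, 2.33 and 1.91 CPM in mutants at 12 dpa, and 3.94 and 3.22 CPM against 1.25, 3.44 and 2.28 CPM at 14 dpa. At 14 dpa its groups overlapped, and the difference of -0.64 (SE 0.26, adjusted p = 0.0679) did not pass. Of 6 tested chondrocyte markers of a list of 8, 4 fell and 2 did not pass (median log2 -2.38), where 22.2% of all genes fell. Their summed level was 392 to 437 CPM in wild type and 197 to 297 CPM in mutants at 12 dpa, and 301 to 326 CPM against 199 to 256 CPM at 14 dpa. Much of that sum was Sox9, at a mean of 211 CPM in wild type and 196 CPM in mutants, which did not pass (-0.10, adjusted p = 0.557). The 4 that fell changed by -5.57 (Col2a1) to -1.81 (Acan). The part of the genes on this list in these differences was not tested.

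Col19a1, a rare chain of basement membrane zones, was at 0.0273 and 0.15 CPM in wild type and 0.259, 0.607 and 0.291 CPM in mutants at 12 dpa, and 0.146 and 0.155 CPM against 0.313, 0.219 and 0.222 CPM at 14 dpa. Every mutant was above every wild type library of its day, at levels that did not reach 1 CPM, and the difference was 1.42 (SE 0.47, adjusted p = 0.0351). It did not pass on either day alone or in 12 of the other settings, 6 of which left out 1 library. Col14a1, which regulates fibril growth in skin and tendon, changed by -0.47 (SE 0.25, adjusted p = 0.164). Col22a1, found at tissue junctions, ran from 0.026 to 5.48 CPM in mutants and from 3.99 to 13.0 CPM in wild type and changed by -2.14 (SE 0.97, adjusted p = 0.108). Col20a1 changed by 0.76 (SE 0.32, adjusted p = 0.0839) at no more than 1.22 CPM.

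Of the 4 transmembrane collagens 3 fell, against 22.2% of all genes, and Col17a1 did not pass. Col17a1, which links hemidesmosomes of basal keratinocytes to the basement membrane, was at 4002 and 3746 CPM in wild type and 2037, 3394 and 2831 CPM in mutants at 12 dpa, and 2799.8 and 2575 CPM against 3289, 3326 and 3270.1 CPM at 14 dpa. All mutants were below the wild type at 12 dpa and all were above it at 14 dpa. At 12 dpa its log2 difference was -0.49 (SE 0.21, adjusted p = 0.126). At 14 dpa it was 0.29 (SE 0.21, adjusted p = 0.296). The difference between the days, 0.79 (SE 0.29), did not pass (adjusted p = 0.545), and the value over both days was -0.099 (SE 0.15, adjusted p = 0.609). On the scales of log2(TPM + 1) and log2(TPM + 0.1) the latter was 0.16, but there the median of all genes was 0.14 and 0.26. With TPM rescaled to protein-coding genes the value at 14 dpa was -0.03, against a median of all genes of -0.15. The sign at 14 dpa was thus opposite to that of the count fit, and whether Col17a1 differed from that median was not tested. Of the 29 members with a mean TPM of at least 1 it had the smallest spread among mutants at 14 dpa, where the highest library was 1.02 times the lowest.

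Col23a1, a collagen of epithelial cell surfaces, was at 20.5 and 18.2 CPM in wild type and 13.1, 16.7 and 9.97 CPM in mutants at 12 dpa, and 14.1 and 13.3 CPM against 6.71, 12.1 and 6.76 CPM at 14 dpa. The groups did not overlap, and the difference was -0.62 (SE 0.20, adjusted p = 0.0302). It lost its call without any of 8 single libraries. Col13a1, of cell adhesion sites and the neuromuscular junction, was at 6.73 and 6.52 CPM in wild type and 2.09, 1.83 and 2.56 CPM in mutants at 12 dpa, and 8.51 and 5.2 CPM against 0.417, 3.32 and 1.11 CPM at 14 dpa. It fell with no overlap, -1.84 (SE 0.46, adjusted p = 0.0116). Col25a1, which motor axons need to enter muscle, changed by -2.07 (SE 0.29, adjusted p = 0.000733).

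Of 10 keratinocyte markers 7 rose, 1 fell and 2 did not pass (median log2 0.85, none at 0). Their summed level was 30318 to 46621 CPM in wild type and 52264 to 74128 CPM in mutants at 12 dpa, and 39461 to 52348 CPM against 70112 to 116719 CPM at 14 dpa. Most of that sum was Krt1 and Krt10, at means of 16721.9 and 16786.6 CPM in wild type and 23634.1 and 35211.5 CPM in mutants. Krt1 did not pass (0.46, adjusted p = 0.182). Krt5 and Krt14, keratins of the basal layer that also holds Col17a1, changed by 1.32 and 1.05. Itga6 and Itgb4, the hemidesmosome integrin that binds beside Col17a1, did not rise: Itga6 was the marker that fell (-0.52, adjusted p = 0.00314), and Itgb4 changed by -0.18 (adjusted p = 0.313). The part of keratinocytes in the level of Col17a1 was not tested. Of 6 Schwann cell markers 2 rose and 4 did not pass, and of 6 macrophage markers 4 fell and 2 did not pass. Of all genes 21.5% were called higher and 22.2% lower, so the Schwann cell count is not read as a result. In the skeletal muscle list 2 of 5 markers were tested, of which 1 fell and 1 rose, and Myh4 was at 0. In the adipocyte list 1 of 4 was tested and fell, and Cidec was at 0.

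Of the 4 remaining collagens 3 fell, against 22.2% of all genes. Type VIII collagen forms hexagonal lattices in vessel walls and the cornea. Its chain Col8a1 was at 147 and 178 CPM in wild type and 55.8, 39.2 and 29.3 CPM in mutants at 12 dpa, and 167 and 137 CPM against 24.2, 72.6 and 50.5 CPM at 14 dpa, and Col8a2 was at 100.3 and 102 CPM in wild type and 12.6, 15 and 8.33 CPM in mutants at 12 dpa, and 66.9 and 60.2 CPM against 8.36, 20.9 and 16.4 CPM at 14 dpa. Both were lower in every mutant of a day, by 3.48-fold and 5.93-fold (log2 -1.80 (SE 0.29, adjusted p = 0.00184) and -2.57 (SE 0.25, adjusted p = 0.000203)). Col26a1, a small collagen-like protein, was at 12.8 and 19.6 CPM in wild type and 3.01, 1.25 and 0.425 CPM in mutants at 12 dpa, and 18.3 and 13.2 CPM against 1.86, 3.01 and 1.51 CPM at 14 dpa. Its groups did not overlap, and it changed by -3.13 (SE 0.46, adjusted p = 0.00132). Col28a1, a von Willebrand domain collagen of peripheral nerve, did not pass (-0.44 (SE 0.30, adjusted p = 0.26)).

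**Figure D3:**
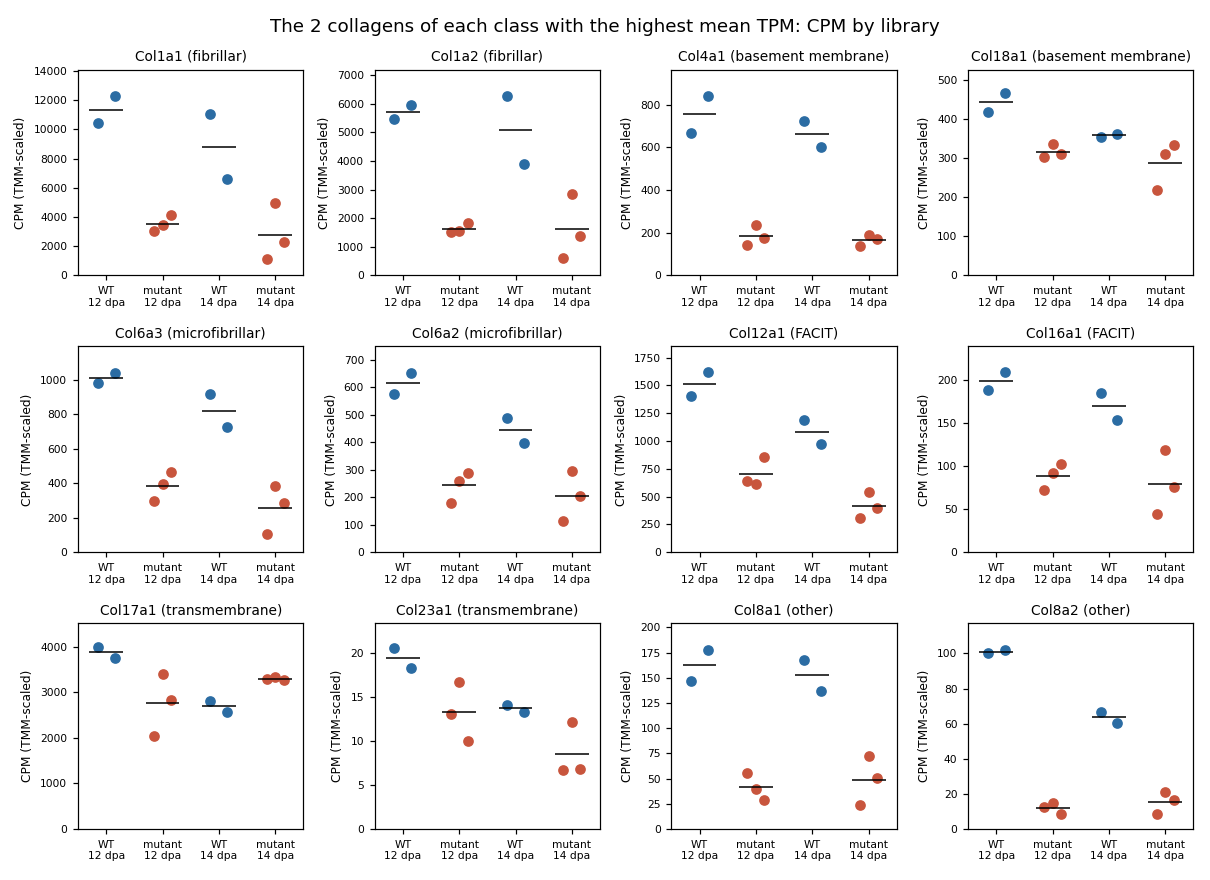
TMM-scaled CPM of the 2 members of each class with the highest mean TPM, per library, with group means as lines; each axis starts at 0. Mutant points (red) lie below the wild type points (blue) of their day in all panels except Col17a1, where at 14 dpa they lie above.

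By day, 15 of 39 collagens fell at 12 dpa and none rose, where 9.34% of all genes were called lower and 7.18% higher (16.5% in either direction). At 14 dpa 24 fell and none rose, where 17.2% of all genes were lower and 16.1% higher (33.3% in either direction). The median log2 difference was -1.14 at 12 dpa and -1.39 at 14 dpa. Fibrillar chains passed in 3 of 10 at 12 dpa and in 9 of 10 at 14 dpa, where Col11a2 alone did not. In 32 members every mutant was below every wild type library at 12 dpa (26.0% of all genes), and in 28 at 14 dpa (31.6%). Fewer calls at 12 dpa do not show a smaller difference: no collagen passed the test of the difference between the days, and no other gene did (3 collagens and 1763 genes at an unadjusted p under 0.05).

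The counts of single days rested on single libraries more than that over both days did. At 12 dpa 24 collagens fell without mutant 14 dpa replicate 1, a library that enters only through the shared spread, and 5 without wild type 12 dpa replicate 2. At 14 dpa 20 fell without mutant replicate 1, 6 without wild type replicate 1 and 3 without both. In mutants at 14 dpa, replicate 1 was lowest for 32 of 39 members and replicate 2 highest for 32, and wild type replicate 1 was highest for 35 of 39. By Xist and Y-linked counts mutant replicate 2 was female and replicates 1 and 3 were male, so library and sex cannot be told apart there. In the wild type pair the higher library was taken as male. With a sex term 19 collagens fell at 14 dpa. The highest library was 2.61 times the lowest, as a median over the same 29 members, in mutants at 14 dpa, 1.61 times in mutants at 12 dpa, and 1.09 and 1.24 times in the wild type pairs at 12 and 14 dpa.

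**Figure D4:**
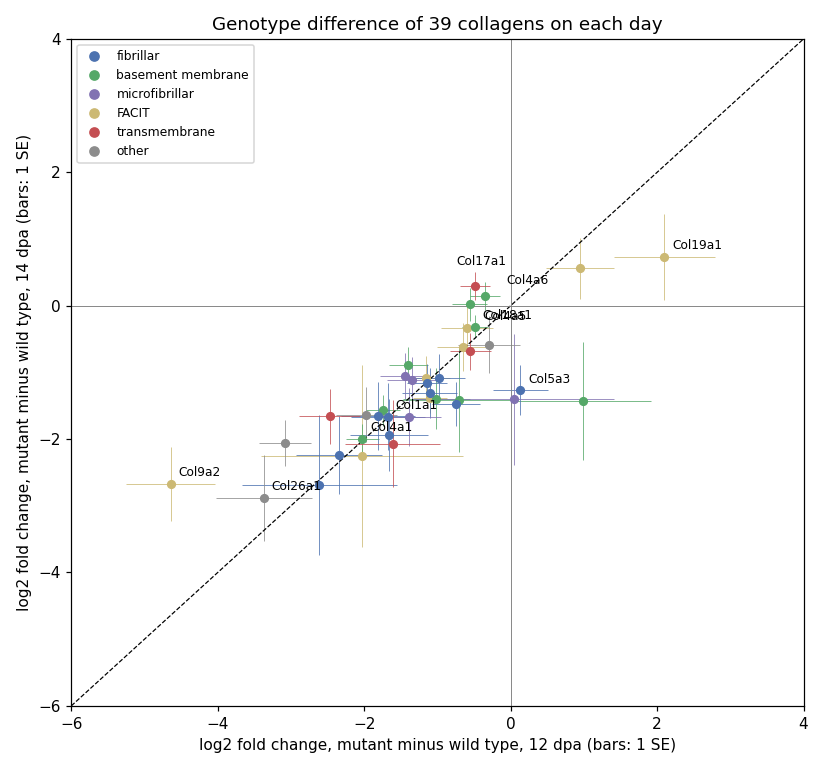
Log2 fold change of mutant against wild type at 12 dpa (horizontal axis) and at 14 dpa (vertical axis) for 39 collagens, with bars of 1 SE and a dashed line of equality. Most members lie below 0 on both axes and near the line, and Col17a1, Col4a5 and Col4a6 lie left of 0 and above 0, Col4a5 only just above it.

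From 12 to 14 dpa no collagen changed within wild type, and none within mutants, by edgeR (1 and 6 at an unadjusted p under 0.05; 0% and 0.0346% of all genes called, the latter 0.0198% lower and 0.0148% higher). In mutants Col5a3 changed by -1.61 (SE 0.35, adjusted p = 0.0954), Col27a1 by -1.19 (SE 0.30, adjusted p = 0.116) and Col12a1 by -0.76 (SE 0.22, adjusted p = 0.133), all without passing. DESeq2 called these 3 (adjusted p = 0.000123, 0.00392 and 0.0143), and limma on log2 TPM called Col5a3 and Col27a1. In wild type the same 3 changed by -0.20, -0.46 and -0.48, and no tool called them there.

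Chains that share a helix or a gene pair were then compared within each library as TPM ratios, with an exact permutation test of the log2 ratio within days (two-sided, 100 labelings, smallest p = 0.01) adjusted over 8 pairs. The ratio of Col4a1 to Col4a2 was 2.48, 2.66, 2.31 and 2.22 in wild type and 2.12, 1.80, 1.68, 1.67, 1.71 and 1.77 in mutants, with no overlap. The log2 difference was -0.43 (exact permutation p = 0.01, adjusted p = 0.0267). That of Col8a1 to Col8a2 was 1.22, 1.46, 2.10 and 1.95 in wild type and 3.65, 2.08, 2.82, 2.46, 2.94 and 2.45 in mutants, apart within each day (0.68, exact permutation p = 0.01, adjusted p = 0.0267). Col9a2 to Col9a3 stood at 0.523 to 1.29 in wild type and at 0.056 to 0.320 in mutants (-2.05, exact permutation p = 0.01, adjusted p = 0.0267). In mutants Col9a2 was at only 0.07 to 0.27 TPM, near the pseudocount of 0.1 TPM, so the size of this difference depends on the pseudocount. All 3 calls were lost with a pseudocount of 1 TPM in place of 0.1 (exact permutation adjusted p = 0.08, 0.107 and 0.08, in the same order) and with mutant 14 dpa replicate 1 in wild type (0.107, 0.08 and 0.08). They were also lost without any 1 of the 10 libraries, which leaves fewer labelings. Without a wild type library these are too few for the 3 pairs alone to pass, so that loss was fixed in advance. The log2 differences were then -0.48 to -0.40, 0.59 to 0.78 and -2.21 to -1.87 over the libraries left out.

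Other pairs did not pass. The ratio of Col1a1 to Col1a2, 1.39 to 1.74 in wild type and 1.33 to 1.94 in mutants, differed by 0.12 (exact permutation adjusted p = 0.30). Col6a1 to Col6a2 stayed between 0.884 and 1.09 in all 10 libraries, a difference of -0.02 (exact permutation adjusted p = 0.74). Col5a1 to Col5a2, Col4a5 to Col4a6 and the near-zero Col4a3 to Col4a4 differed by -0.16, -0.20 and -0.08 (exact permutation adjusted p = 0.48, 0.336 and 0.74). A TPM ratio divides by the transcript lengths that the deposited files give for each library. In the count fit, Col4a1 and Col4a2 differed by -2.01 and -1.66, and Col8a1 and Col8a2 by -1.80 and -2.57.

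**Figure D5:**
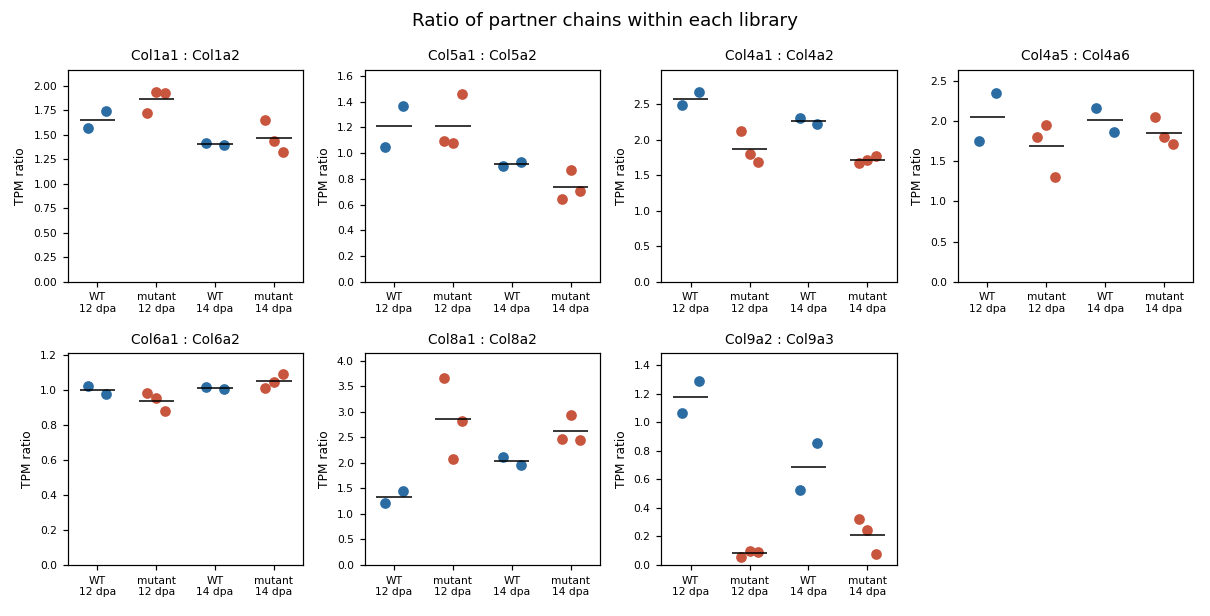
TPM ratio of partner chains in each library for 7 of the 8 pairs, leaving out the near-zero Col4a3 to Col4a4, with group means as lines. Mutants lie below the wild type in Col4a1 to Col4a2 and Col9a2 to Col9a3, above it within each day in Col8a1 to Col8a2, and among it in Col6a1 to Col6a2.

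Many genes that make and handle collagen fell as well. Over all genes 22.2% were called lower and 21.5% higher, and the lists used here were chosen with earlier results of these data known. Of 20 genes of synthesis and folding, 13 fell, 2 rose and 5 did not pass (median log2 -0.52). Serpinh1, the collagen chaperone HSP47, changed by -1.37 (SE 0.16, adjusted p = 0.000357). P3h2, a prolyl 3-hydroxylase of type IV collagen, changed by 0.81 (SE 0.15, adjusted p = 0.00239), and P4hb, the shared subunit of prolyl 4-hydroxylase, by -0.07 (adjusted p = 0.57). Of 14 genes of procollagen processing and crosslinking, 9 fell, none rose and 5 did not pass (median -0.95), led by the lysyl oxidase relative Loxl3 (-2.19, SE 0.18, adjusted p = 6.16e-05). Bmp1, the C-proteinase, changed by -0.23 (adjusted p = 0.0874) and its rare relative Tll2 by 2.38 (adjusted p = 0.0583).

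Of 9 tested receptors and uptake genes 7 fell, 1 rose and 1 did not pass (median -1.13). The shares of all genes were again 22.2% lower and 21.5% higher. The collagen receptor kinases went apart: Ddr2, found on fibroblasts, changed by -1.39 (SE 0.13, adjusted p = 0.000118), and Ddr1, found on epithelia, by 0.39 (SE 0.09, adjusted p = 0.00867).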

How the data were processed

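RNA-seq of 10 libraries was used. Expected counts and TPM per gene were made and deposited by the authors, in the column layout of RSEM per the file headers; RSEM 1.3.0, STAR 2.7.8a, FastQC and the build GRCm39 are listed in the submitters' processing notes. Expected counts are not normalized, and 13.9% are not whole. TPM values deposited by the authors are scaled over all genes, and protein-coding genes hold 27.7% to 52.8% of them, least in wild type at 14 dpa. Libraries were made from total RNA with a stranded kit, per the labels. Deposited FPKM values were not used.

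Counts were rounded and fitted in edgeR 4.0.16 (R 4.3.3, limma 3.58.1): filterByExpr (minimum count 10, minimum total 15), TMM factors, 1 robust quasi-likelihood fit of the 4 groups without covariates, contrasts of group means and Benjamini-Hochberg adjustment over all 20216 tested genes (threshold 0.05). Every adjusted p of a gene without another tool's name is from this fit. Chain ratios used log2(TPM + 0.1). Scripts were tested on simulated data. Values per library are given for the 3 members of each class with the highest mean TPM and for members called higher or between days; for other members with a mean TPM of at least 1, fold change and adjusted p are given; pathway genes are those with the lowest adjusted p in each direction and the highest TPM. Further genes named were chosen after their values were seen. Members and lists were chosen with earlier results of these data known. Groups follow the titles, which number the wild type 14 dpa pair in the opposite order to the descriptions. The series design calls the replicates biological. By Xist and Y-linked counts 6 libraries were male and 4 female, with both sexes in every group, so a group holds different animals. Wild type 14 dpa replicate 1, taken as male, held 1292 Xist counts beside 12561 Y-linked counts, against 11 to 46 Xist counts in the other males. The sex of that library is thus less clear. The labels do not say how many animals gave the 6 digits of a library. Alternatives tried include DESeq2 1.42.0, limma, other scalings and filters, a sex term, male libraries only, a replicate block and leaving out each library. Promoter sequences are from RefSeq on GRCm38.p6.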

Additional observations from a re-analysis of the deposited data

How the results depend on the processing

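Across 27 settings, 1643 values of single collagens kept direction and call, 273 lost a call, 47 gained one and 16 turned. Moving mutant 14 dpa replicate 1 to wild type, as its tag reads, left 0 collagens called over both days, at 12 dpa and at 14 dpa. Leaving out 1 library gave 22 to 30 calls over both days, 5 to 24 at 12 dpa and 6 to 27 at 14 dpa. At 12 dpa, no filter gave 9 calls, DESeq2 23 and male libraries only 2. At 14 dpa, no filter gave 10, only the groups of that day 10, leaving out mutant replicate 1 and wild type replicate 1 gave 3 and male libraries only 9. The settings without both of these libraries, with male libraries only and with TPM rescaled to protein-coding genes were chosen after seeing the data. From 12 to 14 dpa in mutants, DESeq2 called 3 collagens, and log2(TPM + 1), log2(TPM + 0.1) and rescaled TPM called 2 each. On the TPM scales the median of all genes rose to 0.14 and 0.26 from 0.02, and 2650 and 2684 genes were called lower against 6750 and 6881 higher, while 25 collagens were called lower on each. With rescaled TPM at 14 dpa the median of all genes was -0.15, and 3304 genes were lower and 865 higher.

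The replicate numbers gave no clear pairing of the libraries: 13 same-numbered pairs had correlations of -0.175 to 0.154, with 3 over 0.1. Within a wild type pair, the correlations with any library outside it had equal size and opposite sign. Both same-numbered wild type pairs thus repeat the same value, 0.154. Titles and descriptions number the wild type 14 dpa pair in opposite order, and the other order turns the sign of its correlations. The check therefore cannot exclude pairing. A fit with the replicate block called 25 collagens over both days, 10 at 12 dpa and 17 at 14 dpa.

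With a pseudocount of 1 TPM no chain ratio passed: Col4a1 to Col4a2 differed by -0.45, Col8a1 to Col8a2 by 0.48 and Col9a2 to Col9a3 by -0.69. With the tagged library in wild type these were -0.35, 0.67 and -2.10, also without passing. Leaving out 1 library gave -0.48 to -0.40, 0.59 to 0.78 and -2.21 to -1.87, and none passed. The labelings are then fewer, and without a wild type library too few for these pairs alone to pass. Ratios that did not pass ran from -0.037 to 0.0023 for Col6a1 to Col6a2 and from -0.18 to 0.025 for Col4a3 to Col4a4. By day, Col9a2 to Col9a3 was -2.80 at 12 dpa and -1.31 at 14 dpa, Col4a3 to Col4a4 -0.47 and 0.31, and Col6a1 to Col6a2 0.053 at 14 dpa.

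Over both days Col17a1 turned to 0.16 on both TPM scales, and at 14 dpa to -0.028 with rescaled TPM. Col4a6 turned to 0.14 and 0.16 on the TPM scales and to 0.012 with the tagged library in wild type. Col4a4 turned to 0.21 with voom, 0.0036 and 0.034 on the TPM scales and 1.31 in males, and leaving out 1 library gave -0.66 to 1.41. Col6a5 turned to 1.37 in males, and leaving out 1 library gave -1.30 to 1.45. With the tagged library in wild type, Col18a1 and Col9a3 turned to 0.052 and 0.030 at 14 dpa. The depth limits members under 1 CPM most.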
